A study of Mus musculus with 42 samples.

Results

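The genes described here encode 10 secreted or cell-surface factors of vessel growth and matrix remodelling: the ligands Vegfa, Vegfb, Pgf and Ptn, the plasminogen activation genes Plau, Plaur and Serpine2, the metalloproteinase inhibitors Timp1 and Timp2, and the heparan sulphate-cleaving enzyme Hpse. They were taken by name, with earlier results of these data known, from the 54353 genes shared by the bulk RNA-Seq libraries. All 10 were also present in the single-cell matrix of 35237 genes. On mm10 they are spread over separate chromosomes, with Vegfa at chr17:46016993-46032369, Hpse at chr5:100679484-100719716, Serpine2 at chr1:79794197-79861180, Plaur at chr7:24462484-24475968, Timp1 at chrX:20870166-20874735 and Timp2 at chr11:118301069-118355740. The study examined uterine tissue-resident natural killer cells (trNK) of C57BL/6 mice during decidualization and asked whether interleukin-21 (IL-21), acting through the transcription factor STAT3, drives their differentiation. Of its data, 34 bulk libraries in 4 experiments were used, with 2 libraries in every group.

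All groups were wild type and no group carried a transgene or a deletion. In the gestation experiment, trNK sorted as CD45+NK1.1+NKp46+CD49a+CXCR6- cells came from virgin mice and from pregnant mice at gestational day (gd) 6.5 and 8.5. In the subset experiment, gd8.5 trNK were divided by the surface proteins CD55 and 4-1BB into virginal (trNK-V, both low), differentiating (trNK-D, both intermediate) and terminal (trNK-T, both high) cells. In the inhibitor culture, virginal trNK of gd6.5 mice, as the study's text describes them, were kept without IL-21, with IL-21 at 20 ng/mL for 3 days, or with the same IL-21 plus Stattic, a small-molecule inhibitor of STAT3 (iSTAT3), at 1 µM by the sample labels, while the study's methods print another unit, and live NK1.1+ cells were collected. In the time course, virginal trNK of gd6.5 mice, again by the study's text, were kept with or without IL-21 at 20 ng/mL and sampled at 0, 6, 24 and 72 h. They were kept in IL-15 (10 ng/mL in the sample characteristics and 15 ng/mL in the treatment label). The study's methods give IL-15 at 10 ng/mL for all cultured trNK, the inhibitor culture included. The label of 2 libraries gives IL-21 at 0 h, and they were kept as labelled. The labels do not say that the libraries of a group came from separate mice or cultures, so the p-values measure only the spread between these libraries, which may be technical. The single cells were CD45+NK1.1+NKp46+ cells of virgin and gd8.5 uteri, pooled from several mice.

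As background, the decidua is the lining that the uterus builds around an implanting embryo, and its arteries are widened while the matrix around them is taken apart and rebuilt. Vegfa is the main growth factor for endothelial cells, Vegfb and Pgf are relatives that bind the receptor Flt1, and Ptn (pleiotrophin) is a heparin-binding growth factor known as a product of uterine NK cells. Plau (urokinase) cuts plasminogen into the protease plasmin, Plaur holds urokinase on the cell surface, and Serpine2 (protease nexin 1) blocks thrombin and urokinase. Timp1 and Timp2 are secreted inhibitors of matrix metalloproteinases, and Hpse (heparanase) cleaves the heparan sulphate chains that hold growth factors in the matrix.

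Levels are RPKM, the deposited counts scaled by exonic length and library total, so that genes can be compared with each other. Total counts ran from 11862089 to 29537298 per library in the gestation, subset and inhibitor experiments and from 28541369 to 66468883 in the time course. A gene was called where edgeR's quasi-likelihood test gave a Benjamini-Hochberg adjusted p under 0.05 and a fold over 2. The study's own expression filter, RPKM above 10 in both libraries of a group, left 2 of the 10 genes, Timp1 and Serpine2, and these only in the inhibitor culture. Each passed only through the groups in which it was high, Timp1 through the IL-21 group alone, so a call with this filter is no support for a difference. A lower filter on counts (filterByExpr) left 9 of the 10 genes in the gestation and subset experiments, 6 in the inhibitor culture and 7 in the time course, and tests on the other genes are given with that filter. Some groups held unlike libraries. The 7 markers of the terminal stage summed to 984 RPKM in virgin replicate 1 and 16420 in replicate 2, against 13370 to 19550 in the pregnant mice, and the rank correlation of the replicates was 0.87 in virgin mice against 0.961 in each pregnant group. At 72 h it was 0.855 without and 0.878 with IL-21, where 1003 and 1045 of 3503 genes lay over 2-fold apart. The groups of the inhibitor culture (none, IL-21, iSTAT3) had 0.871, 0.874 and 0.879, with 459, 598 and 621 of 4158 genes over 2-fold apart. A lower level in a sorted bulk library may come from fewer cells of a type or from less RNA per cell, and these cannot be told apart here.

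The 250 bases before the start site were found in RefSeq (GRCm38.p6) for 9 of the 10 genes, Plau excepted. The RefSeq start can differ from that of the annotation used for the counts. The window of Serpine2 lies inside the gene's span given above. They are shown for Timp1 and Serpine2, the pair that passed the study's filter, and for Plaur, whose level was highest in trNK-D. Capitals mark matches to TTCNNNGAA (the STAT motif), TGANTCA (AP-1), ACGTG (hypoxia response core) or GGGCGG (GC box), each searched on both strands. Some neighbouring GC boxes share a base.
Timp1, chrX:20869916-20870165, plus strand: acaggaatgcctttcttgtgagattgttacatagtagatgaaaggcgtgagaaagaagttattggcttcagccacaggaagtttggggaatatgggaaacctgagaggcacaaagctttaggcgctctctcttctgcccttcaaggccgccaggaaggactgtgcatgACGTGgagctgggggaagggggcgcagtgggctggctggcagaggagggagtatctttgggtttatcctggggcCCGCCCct
Serpine2, chr1:79858666-79858915, minus strand: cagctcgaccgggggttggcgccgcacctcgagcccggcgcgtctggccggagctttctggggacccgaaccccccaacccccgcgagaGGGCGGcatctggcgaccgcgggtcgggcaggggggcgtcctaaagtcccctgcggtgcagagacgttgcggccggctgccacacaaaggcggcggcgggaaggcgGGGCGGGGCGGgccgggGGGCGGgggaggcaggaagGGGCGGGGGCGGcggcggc
Plaur, chr7:24462233-24462482, plus strand: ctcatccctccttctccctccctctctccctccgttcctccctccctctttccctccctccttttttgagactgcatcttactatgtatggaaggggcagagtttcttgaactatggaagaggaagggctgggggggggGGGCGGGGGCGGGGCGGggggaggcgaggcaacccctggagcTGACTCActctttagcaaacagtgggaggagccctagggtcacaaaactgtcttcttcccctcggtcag

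No window of the 9 genes held TTCNNNGAA, which 7.01% of all 32817 windows held. The only match to TGANTCA among these genes was in Plaur, at 69 to 63 bases before the start, against 6.75% of all windows. ACGTG occurred in Timp1, Hpse and 1 of the 2 Vegfa windows, against 16.6% of all windows. GGGCGG had at least 1 match in every window except that of Ptn and 1 of the 2 for Pgf (32.7% of all windows held it), and Serpine2 held 6 matches in a window of 78.8% GC, against a median of 52.4% GC over all windows and 54.4% for Timp1. A match describes these letters only.

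Over the bulk libraries, the 10 genes divided by where they were detected. Serpine2 was the most abundant, reaching 55.2 RPKM with IL-21 in the inhibitor culture, followed by Timp1 at 42.9 RPKM in the same library. Vegfb had counts in all but 1 of the 34 libraries, while Vegfa, Hpse and Timp2 were read at 0 in 8, 4 and 3 libraries. Plaur was at 0 in 25 libraries, Ptn in 23, Timp1 in 21 and Plau in 18. Pgf had 6 counts in virgin replicate 2 and none in any other library. Ptn, Plau, Plaur and Pgf were at 0 in all 6 libraries of the inhibitor culture, and Ptn and Pgf also in all 16 of the time course.

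**Figure D1:**
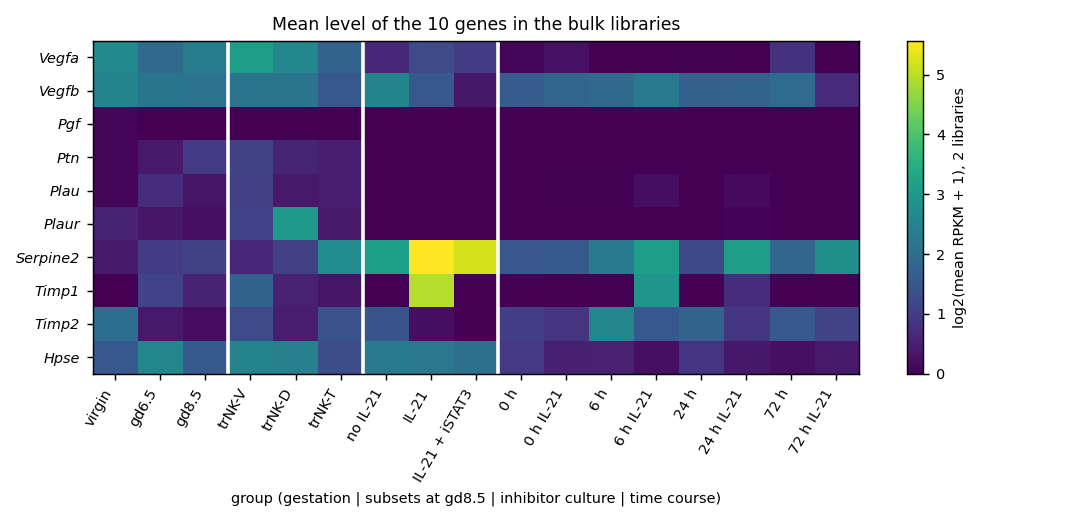
Mean level of the 10 genes (rows) in the 17 bulk groups (columns), as log2 of the mean RPKM of 2 libraries plus 1; white lines part the gestation, subset, inhibitor culture and time course experiments. Serpine2 and Timp1 stand out with IL-21 in culture, and Pgf is dark throughout.

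Among the freshly sorted groups, the mean level of Vegfa was highest in trNK-V. In the subset experiment its level was 7.91 and 7.59 RPKM in trNK-V, 6.74 and 3.20 in trNK-D and 3.39 and 1.44 in trNK-T, so that trNK-V and trNK-T did not overlap while trNK-D overlapped trNK-T. The log2 fold change of trNK-T over trNK-V was -1.502 (SE 0.52), which did not pass edgeR's test (adjusted p = 0.126), where 6.75% of all genes were called. It passed with DESeq2 on the same genes (adjusted p = 0.0466, 14.6% of genes called) and with edgeR without a filter on low counts (adjusted p = 0.0199, 7.71% called). Marker sums of other cells moved between these subsets as well. Stromal markers summed to 51.9 and 4.60 RPKM in trNK-V, 4.78 and 2.11 in trNK-D and 0.513 and 0.688 in trNK-T, and macrophage markers, given with Plaur, were also lowest in trNK-T. Of the markers of conventional NK cells, Itga2 was at 3.74 and 5.09 RPKM in trNK-V and 0.819 and 0.887 in trNK-T, and S1pr5 at 1.71 and 4.87 against 0 in both. Their part in the levels of Vegfa, and of Vegfb, Ptn, Timp1, Hpse and Serpine2 in these subsets, was not tested. Over gestation, Vegfa was at 4.22 and 6.24 RPKM in virgin mice, 2.31 and 3.31 on gd6.5 and 3.40 and 4.87 on gd8.5. The gd6.5 libraries lay below both virgin libraries (log2 fold change -0.96, SE 0.40, edgeR adjusted p = 0.289, 0.0356% of genes called), and the gd8.5 libraries overlapped the virgin ones. Macrophage and mast cell marker sums, given with Timp2, were also lower on gd6.5 than in virgin mice. Their part in the level of Vegfa over gestation was not tested.

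In the inhibitor culture and the time course, the mean level of Vegfa in each group was lower than in any group of the gestation and subset experiments. This held at 0 h as well, at 0.132 and 0 RPKM, and at 0.233 and 0.154 in the libraries labelled IL-21. Single libraries overlapped trNK-T, and these experiments were prepared separately and their levels were not tested against each other. Vegfa reached 1.55 RPKM in the inhibitor culture. In the time course it was at 0 in 7 of 16 libraries and at or below 0.233 RPKM in all the others except 72 h without IL-21, where replicate 2 stood at 1.502 (268 counts) and replicate 1 at 0.00817 (1 count).

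Vegfb, the relative that acts mainly through Flt1, varied less in vivo. Its level was between 2.67 and 5.55 RPKM in the 6 gestation libraries. It was 3.15 and 3.73 RPKM in trNK-V, 3.00 and 3.86 in trNK-D and 1.45 and 2.36 in trNK-T. Both trNK-T libraries were below all 4 libraries of the other subsets, and no test of Vegfb passed in edgeR in any of these comparisons. In the inhibitor culture its replicates differed widely, with 7.79 and 1.64 RPKM without IL-21, 0.511 and 3.23 with IL-21 and 0.0211 and 0.553 with IL-21 and iSTAT3.

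Ptn was read only in the gestation and subset experiments, and was at 0 in the time course from 0 h on. Its level was 0.140 and 0.0160 RPKM in virgin trNK, 0.269 and 0.316 on gd6.5 and 0.502 and 1.44 on gd8.5, and the groups of virgin and gd8.5 did not overlap. The log2 fold change at gd8.5 over virgin was 3.63 (SE 1.37), short of the threshold in edgeR (adjusted p = 0.458, 0.0356% of genes called), and rested on 11 and 1 counts in the virgin libraries against 29 and 81. The stromal gene Dcn was at 0.426 and 0.0471 RPKM in virgin mice, 0.534 and 0.194 on gd6.5 and 0.499 and 0.803 on gd8.5. Col1a1 was at 0.120 and 0.0838, 0.194 and 0.330, and 0 and 0.455 RPKM. The sum of all stromal markers, given with Timp2, was instead highest in virgin replicate 1. The part of stromal RNA in the level of Ptn was not tested. Among the subsets it was 0.642 and 1.597 RPKM in trNK-V, 0.995 and 0 in trNK-D and 0.387 and 0.393 in trNK-T, where the stromal marker sums given with Vegfa were also lower.

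**Figure D2:**
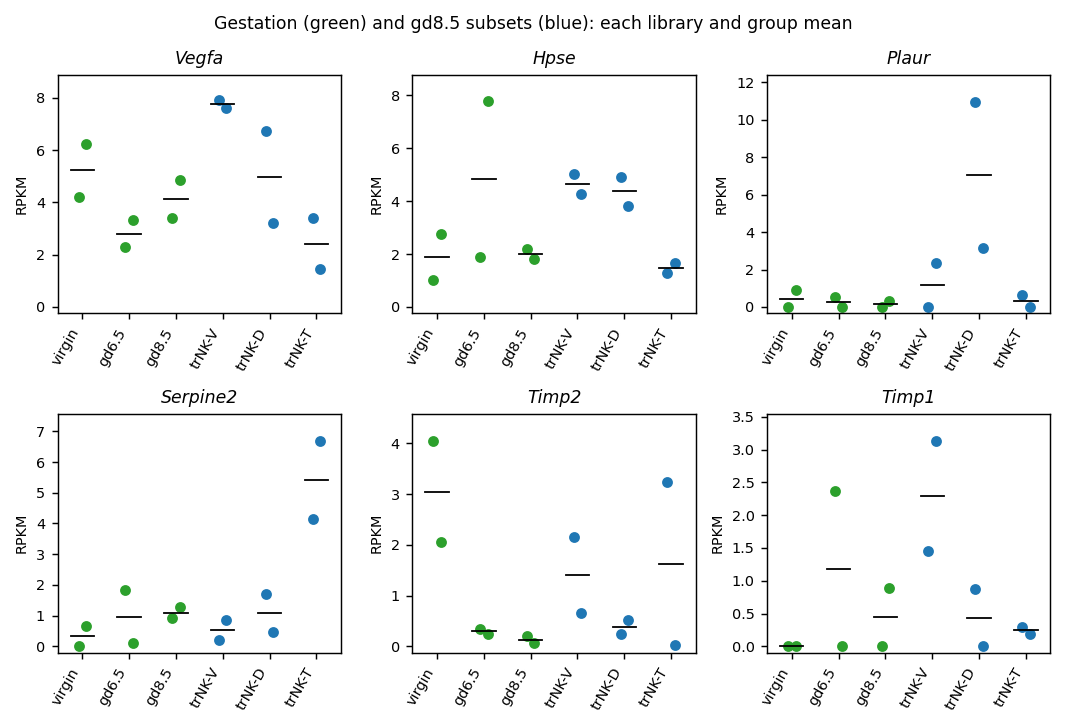
RPKM of 6 of the genes in the freshly sorted groups, with the gestation libraries in green and the gd8.5 subsets in blue; each point is a library and each line the mean of 2. Vegfa and Hpse are lowest and Serpine2 highest in trNK-T among the subsets, Plaur is highest in trNK-D replicate 1 at 10.9 RPKM, and Timp2 is higher in both virgin libraries than at gd6.5 or gd8.5.

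Of the plasminogen activation genes, Plau was low throughout, with at most 2.17 RPKM (72 counts) in trNK-V replicate 2 and none in trNK-V replicate 1. Plaur, its receptor, was at 10.9 and 3.17 RPKM in trNK-D (595 and 163 counts), 0 and 2.34 in trNK-V and 0.659 and 0 in trNK-T. Both trNK-D libraries lay above the other 4, but the 2 trNK-D libraries themselves differed by more than the level of any other library. The log2 fold change of trNK-T over trNK-D was -4.30 (SE 2.25) and did not pass edgeR's test with the count filter (adjusted p = 0.515, 0.0767% of genes called), while without a filter it was -4.33 (adjusted p = 6.78e-04, 2.24% called). Library by library, macrophage markers did not follow the order of Plaur, though their group means were also highest in trNK-D and lowest in trNK-T. Their sum over 7 genes was 262 and 352 RPKM in trNK-D, 48.4 and 294 in trNK-V and 18.2 and 14.9 in trNK-T, and Lyz2, a lysozyme of myeloid cells, was at 212 and 303, 19.3 and 269, and 1.97 and 4.61 RPKM. Csf1r, which defines macrophages, was at 1.497 and 3.02 RPKM in trNK-D, 0 and 1.49 in trNK-V and 0 in both trNK-T libraries. Plaur was at 0 in trNK-V replicate 1 and Csf1r as well, while C1qa was at 1.18 RPKM there against 0.548 in replicate 2, and Plaur was read in trNK-T replicate 1 with Csf1r at 0. The part of macrophage RNA in the levels of Plaur was not tested.

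Serpine2, the inhibitor of thrombin and urokinase, had its highest levels in trNK-T among the subsets and with IL-21 in culture. In the subsets its level was 0.203 and 0.859 RPKM in trNK-V, 1.70 and 0.466 in trNK-D and 4.14 and 6.67 in trNK-T. Both trNK-T libraries were above all others, with a mean 10.2-fold that of trNK-V and 4.99-fold that of trNK-D. The log2 fold change of trNK-T over trNK-V was 3.54 (SE 0.88), which missed the threshold in edgeR (adjusted p = 0.0587) and passed in limma-voom (adjusted p = 0.0484, 5.49% of genes called), DESeq2 (adjusted p = 2.86e-04) and edgeR without a filter (adjusted p = 2.80e-09). Over trNK-D it was 2.42 (SE 0.83, edgeR adjusted p = 0.352). Sums of epithelial markers (11.1 and 6.54 RPKM in trNK-V, 53.4 and 58.0 in trNK-T, where 3 of 4 were at 0), endothelial markers (20.98 and 19.56 against 50.2 and 50.8) and mast cell markers (1.98 and 2.06 against 10.7 and 8.79) were higher in trNK-T, and their part in the level of Serpine2 was not tested either. Over gestation it was low, with 0 and 0.650 RPKM in virgin mice, 1.82 and 0.0934 on gd6.5 and 0.911 and 1.28 on gd8.5, where both libraries lay above the virgin ones without passing the test.

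In the inhibitor culture Serpine2 was higher in both groups with IL-21. Its level was 7.55 and 8.10 RPKM without IL-21, 55.2 and 37.4 with IL-21 and 42.3 and 30.0 with IL-21 and iSTAT3. The groups with and without IL-21 did not overlap, and their means differed 5.92-fold. With the count filter the log2 fold change was 2.83 (SE 0.37), with adjusted p = 0.204 in edgeR, where 0% of genes were called, and 3.28e-11 in DESeq2 (1.4% called). With the RPKM filter, which Serpine2 passed only through the groups with IL-21, edgeR gave 2.76 (SE 0.37, adjusted p = 0.0326), 1 of 12 genes called of 4158 tested, or 0.289%. Leaving out either library without IL-21, or IL-21 replicate 1, raised that adjusted p to between 0.121 and 0.231. The inhibitor group overlapped the group with IL-21 alone, at a log2 fold change of -0.29 (SE 0.34, edgeR with the count filter, adjusted p = 0.819). Against the group without IL-21, a comparison chosen after seeing the data, the log2 fold change with IL-21 and iSTAT3 was 2.54 (SE 0.36), with edgeR adjusted p = 0.0652 with the count filter and 0.0117 with the RPKM filter, where 4.74% of genes were called. In both libraries with IL-21 alone, all 6 stromal markers were at 0, as were 6 of 7 macrophage markers, all but Cd68, which was at 28.6 and 22.1 RPKM against 20.7 and 18.9 without IL-21.

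The time course gave the same order at lower levels. Serpine2 was at 1.62 and 2.07 RPKM at 0 h, and at 2.60 and 1.38 in the 0 h libraries labelled IL-21. Without and with IL-21 it was at 4.01 and 3.65 against 5.59 and 9.68 RPKM at 6 h. At 24 h it was at 0.378 and 2.30 against 9.60 and 5.67, and at 72 h at 2.25 and 2.88 against 8.07 and 3.50. At 6, 24 and 72 h, 17.6%, 24.7% and 16.3% of all genes with a count were higher in both libraries with IL-21 than in both without. Serpine2 was among them at each of these 3 times, by 1.99-fold, 5.70-fold and 2.26-fold of the means, whereas its 0 h groups overlapped. In edgeR the log2 fold changes were 0.98 (SE 0.71) at 6 h, 2.37 (SE 0.74) at 24 h and 0.97 (SE 0.71) at 72 h, with adjusted p of 1, 0.637 and 0.490, where 0.0672%, 0.00672% and 5.07% of genes were called. The mean over these 3 times, a contrast chosen after seeing the data, was 1.44 (SE 0.42), with adjusted p = 0.0902 in edgeR, 0.0294 in limma-voom and 0.00678 in DESeq2. These tools called 2.78%, 3.88% and 8.53% of all genes. The difference of the IL-21 effect between 72 h and 6 h was -0.01 (SE 1.00, 2.47% of genes called), too wide to tell whether the effects differ.

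**Figure D3:**
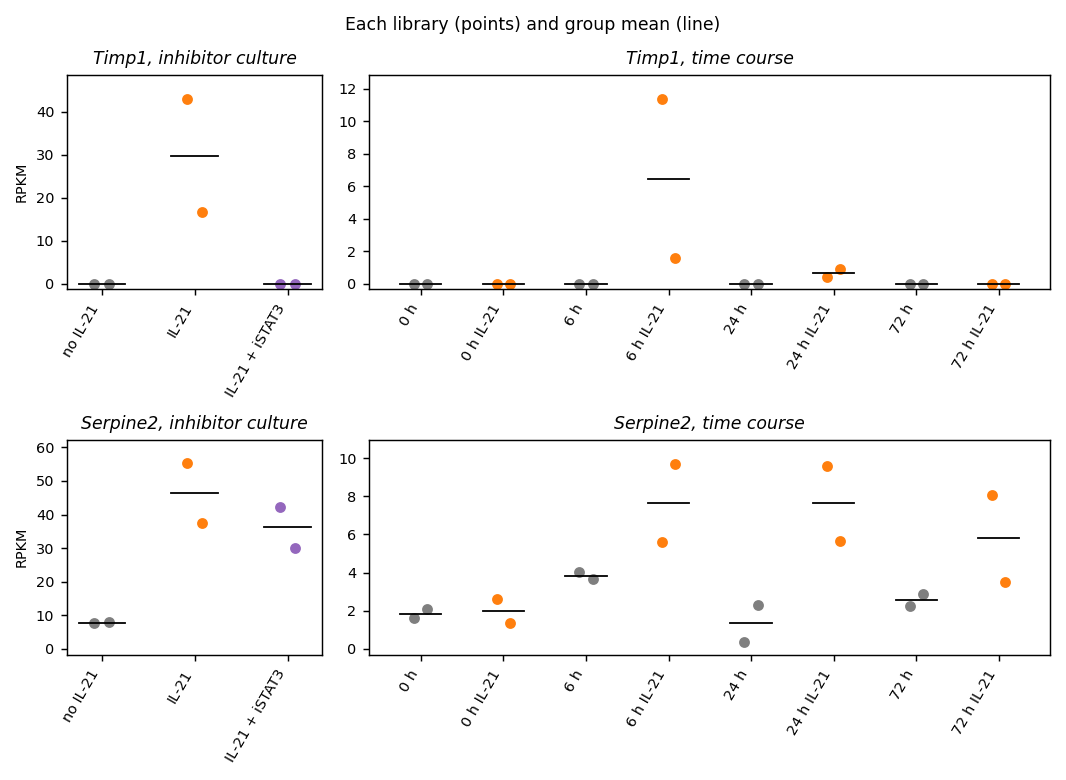
RPKM of Timp1 (top) and Serpine2 (bottom) in the inhibitor culture (left) and the time course (right); points are libraries, lines are the mean of 2, and grey, orange and purple mark no IL-21, IL-21, and IL-21 with iSTAT3. Timp1 is above 0 only with IL-21 and is at 0 with iSTAT3, while Serpine2 is at 30.0 RPKM or more in both groups with IL-21, inhibitor or not.

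Timp1, an inhibitor of metalloproteinases that is also known as a cytokine-induced secreted protein, was read in culture only with IL-21 and without Stattic. No group held Stattic without IL-21. Timp1 had 464 and 199 counts (42.9 and 16.6 RPKM) with IL-21 and 0 counts in the 4 other libraries of the inhibitor culture. Taking 3 counts per library as the floor, it was at least 205-fold lower with iSTAT3 than with IL-21 alone and at least 162-fold lower without IL-21. Without IL-21 replicate 1 these bounds were 115-fold and 90.8-fold. With the count filter edgeR passed neither difference (adjusted p = 0.143 for iSTAT3, 0.00733% of genes called, and 0.346 against no IL-21). With the RPKM filter, which Timp1 passed only through the IL-21 group, edgeR gave adjusted p = 0.0195 for iSTAT3, as 1 of 123 genes called, or 2.96% of 4158, and 0.0524 against no IL-21. Limma-voom with the RPKM filter and edgeR without a filter passed the difference from no IL-21 (adjusted p = 0.00616 and 1.67e-07, with 0.433% and 0.687% of genes called), and DESeq2 did not (adjusted p = 0.229, 3.9% called). The RPKM-filtered call with iSTAT3 was lost in DESeq2 (adjusted p = 0.0987, 10.7% of genes called) and without IL-21 replicate 1 (0.0603) or either inhibitor library (0.0831 and 0.106).

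In the time course Timp1 had 619 and 48 counts at 6 h with IL-21 (11.3 and 1.56 RPKM), 14 and 24 at 24 h with IL-21 (0.430 and 0.882 RPKM) and none in the other 12 libraries, those at 72 h with IL-21 included. The difference from the libraries without IL-21 was at least 122-fold at 6 h and at least 6.91-fold at 24 h, and on the lower IL-21 library alone at least 29.4-fold and 4.53-fold. The replicates at 6 h differed widely, and edgeR passed neither time (adjusted p = 0.721 and 0.852), while limma-voom passed 6 h (adjusted p = 0.00807, 0.423% of genes called) and the difference between 72 h and 6 h (adjusted p = 0.0378, 2.83% called). Timp1 passed the count filter here only through groups with IL-21, so these passes are no support for a difference. The inhibitor culture with IL-21 for 3 days and the time course with IL-21 at 72 h thus gave unlike levels, in separately prepared experiments that were not tested against each other. Freshly sorted trNK held low levels without a group pattern over gestation, with 2.37 RPKM in gd6.5 replicate 1, 0.891 in gd8.5 replicate 2 and 0 in the other 4 libraries. In the subsets it was at 1.46 and 3.13 RPKM in trNK-V, 0.867 and 0 in trNK-D and 0.299 and 0.190 in trNK-T (4 and 2 counts), with stromal marker sums, given with Vegfa, that were lower in trNK-T as well. Timp1 lies within Syn1 on the opposite strand with no exonic base in common, and Syn1 had at most 56 counts in any library.

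Timp2, the other metalloproteinase inhibitor, followed a different pattern from Timp1. Virgin trNK held 4.04 and 2.05 RPKM of it (361 and 145 counts). The level was 0.349 and 0.238 RPKM on gd6.5 and 0.198 and 0.0625 RPKM on gd8.5. Both virgin libraries lay above all 4 of the pregnant mice, by 10.4-fold over gd6.5 and 23.3-fold over gd8.5 in the means. The log2 fold changes were -3.37 (SE 0.81) and -4.52 (SE 0.86), which did not pass in edgeR (adjusted p = 0.124 and 0.258) and passed in DESeq2 (adjusted p = 0.00126 and 6.40e-05), where 5.64% and 2.38% of genes were called. Stromal markers summed to 5.24 and 0.153 RPKM in the virgin libraries and to between 1.04 and 1.904 RPKM in the pregnant ones. Mast cell markers were higher in the virgin libraries, at 7.22 and 14.5 RPKM against 0.892 to 3.27 in the pregnant ones. Macrophage markers summed to 20.1 and 29.3 RPKM in virgin mice, 10.1 and 10.9 on gd6.5 and 17.7 and 21.1 on gd8.5. Of the virgin sums, 9.96 and 23.2 RPKM were Cd68, which was also read in the cultures. C1qb was at 3.61 and 1.31 RPKM against 0.484 to 1.12 in all 4 pregnant libraries. The groups overlapped for C1qa, at 2.22 and 0.423 RPKM against 0 to 0.843, and Csf1r was at 0 in both virgin libraries. Of the markers of conventional NK cells, Itga2 was at 5.06 and 0.794 RPKM in virgin mice against 1.19 to 2.40 in the pregnant ones. S1pr5 was at 0 in both virgin libraries. The part of other cells' RNA in the level of Timp2 was not tested. Without virgin replicate 1 the edgeR log2 fold changes of Timp2 were -2.89 and -4.04 (adjusted p = 0.177 and 0.208), and without replicate 2 they were -3.72 and -4.88 (adjusted p = 0.0406 and 0.0306).

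In culture Timp2 was lower with IL-21 than without it at the same time in most pairs of groups. In the inhibitor culture it was at 2.57 and 0.873 RPKM without IL-21, 0.274 and 0.0190 with IL-21 and 0 in both libraries with IL-21 and iSTAT3. In the time course it was at 5.49 and 4.27 against 1.80 and 2.02 RPKM at 6 h and at 2.40 and 2.32 against 1.21 and 0.469 at 24 h, without and with IL-21. At 72 h the groups overlapped, since the library of replicate 1 without IL-21 was at 0 while replicate 2 was at 3.79 RPKM. None of these IL-21 comparisons of Timp2 passed in edgeR with the count filter, and the direction at 72 h turned with the tool and with that group's replicates. The log2 fold change there was -0.90 (SE 1.58) in edgeR, 2.94 (SE 1.97) in limma-voom and 10.83 in edgeR without replicate 2 of the group without IL-21. Among the subsets, Timp2 was at 2.15 and 0.658 RPKM in trNK-V and 0.235 and 0.509 in trNK-D, and the trNK-T replicates stood far apart at 3.24 and 0.0216 RPKM.

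Hpse was the only member of the heparan sulphate group among the 10 genes. Its level was 5.01 and 4.27 RPKM in trNK-V, 4.93 and 3.83 in trNK-D and 1.26 and 1.68 in trNK-T, and both trNK-T libraries lay below the other 4. The log2 fold change was -1.47 (SE 0.44) against trNK-V and -1.49 (SE 0.44) against trNK-D, with edgeR adjusted p of 0.0891 and 0.298 and DESeq2 adjusted p of 0.0162 and 0.0462 (14.6% and 3.06% of genes called). Over gestation it was at 1.00 and 2.75 RPKM in virgin mice, 1.87 and 7.79 on gd6.5 and 2.20 and 1.80 on gd8.5, with wide overlap. In the inhibitor culture it stayed between 2.43 and 4.56 RPKM in all 6 libraries, without a pattern by group.

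Counted over the 10 genes, edgeR with the count filter called none of the 10 genes in any of the 16 planned comparisons, although 6.75% of the 14335 genes tested were called in trNK-T against trNK-V and 5.07% of 14879 for IL-21 at 72 h. The shares in trNK-D against trNK-V, 72 h against 24 h without IL-21, and iSTAT3 with IL-21 against none were 0.00698%, 7.68% and 0.154%. In the freshly sorted groups, at an unadjusted p under 0.05 stood 3 of the genes in trNK-T against trNK-V (Vegfa, Serpine2 and Hpse), 2 in trNK-T against trNK-D (Serpine2 and Hpse), 2 on gd6.5 against virgin (Timp2 and Vegfa) and 2 on gd8.5 against virgin (Timp2 and Ptn). Over all genes tested, 3919 and 1654 of 14335 and 2415 and 1407 of 14040 stood there in these comparisons. In culture 2 genes did for IL-21 (Serpine2 and Timp1) and 2 for iSTAT3 against IL-21 (Timp1 and Timp2), beside 710 and 1735 of 13647. In the time course 1 did at 6 h (Timp1) and 2 at 24 h (Serpine2 and Timp1), beside 669 and 769 of 14879. DESeq2 called those 3 genes in trNK-T against trNK-V, where it called 14.6% of all genes. In that comparison 1 of the 10 genes was higher and 5 were lower in both trNK-T libraries than in both trNK-V libraries, beside 18.0% of all genes that were higher and 23.5% that were lower in this sense. Against virgin mice, 14.6% of all genes were lower without overlap on gd6.5, and 13.3% were lower and 17% higher on gd8.5. With IL-21 in the inhibitor culture 9.38% were higher and 19.9% lower.

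**Figure D4:**
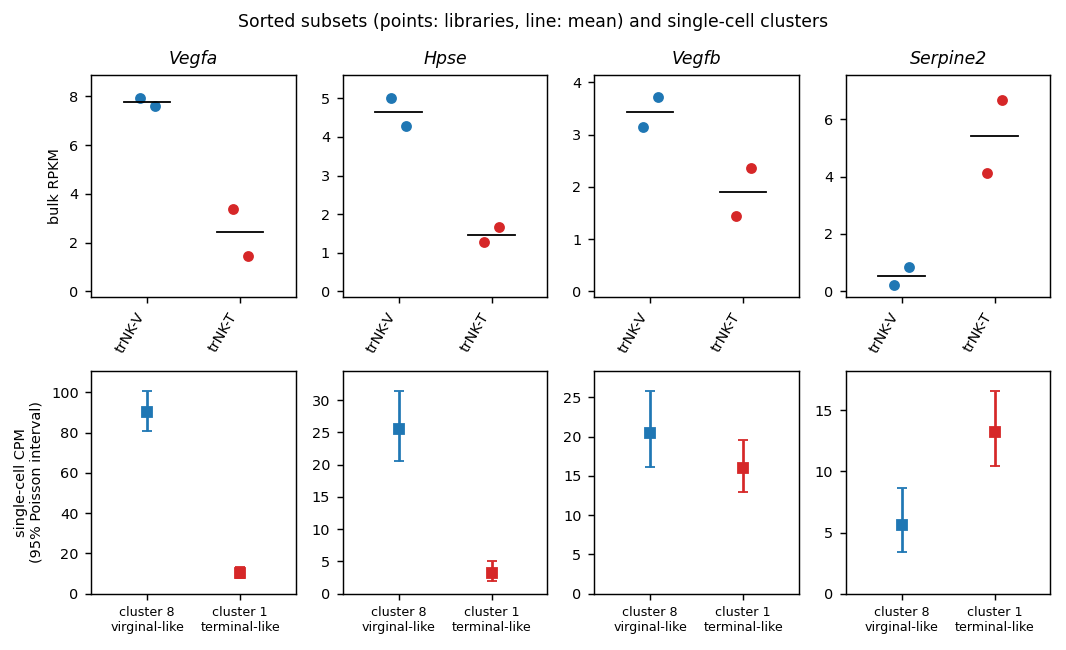
Vegfa, Hpse, Vegfb and Serpine2 in sorted trNK-V and trNK-T (top, RPKM, points are libraries and lines the mean of 2) and in the virginal-like and terminal-like single-cell clusters (bottom, CPM of UMIs with 95% Poisson intervals, which cover counting error only). The terminal-like cluster plotted is the one led by Popdc3, and another trNK-like cluster that met the virginal-stage list is not plotted. Vegfa and Hpse are lower and Serpine2 is higher there and in trNK-T, the intervals of Vegfb overlap, and Serpine2 in the other terminal-like cluster was at 3.88 CPM.

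The joined single-cell matrix held 15175 cells, of which 8907 were kept and fell into 18 clusters. The cells carry no tag for virgin or gd8.5 in these files, so they formed 1 pooled sample with no test between conditions. Levels are CPM, the unique molecular identifiers (UMIs) of a gene summed over a cluster and scaled by the cluster's total, with exact 95% Poisson intervals, and clusters were formed without the 10 genes. Cells were named by markers, and 4 clusters with 3726 cells were named trNK-like. The virginal-like cluster and a further cluster of 650 cells met the trNK list (3 of 4 markers). Both terminal-like clusters met only the list of terminal-stage markers. An unnamed cluster of 829 cells led by Tpsb2 and Cxcr6 met the trNK list (3 of 4) and the virginal-stage list (5 of 5). It also met lists of T cells and mast cells, among others, and was not counted as trNK-like. A cluster of 496 cells that met only the list of dividing cells is counted apart from the trNK-like clusters here. Although the gate was for CD45+NK1.1+NKp46+ cells, 1200 cells were macrophage-like, 300 B-like, 258 T-like and 210 stromal-like, and no doublets were removed.

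Between the virginal-like cluster and the terminal-like cluster led by Popdc3, Vegfa, Hpse and Serpine2 differed in the direction of the sorted subsets. A further trNK-like cluster, of 650 cells, also met the list of virginal-stage markers (3 of 5) and was not part of this comparison. Hpse was at 29.9 CPM (22.5 to 38.9) in that cluster. Vegfa in that cluster of 650 cells was no higher than in the terminal-like cluster led by Popdc3. It was lower there than in the virginal-like cluster, which held 321 of the 484 Vegfa UMIs in trNK-like cells. The high Vegfa level was thus not shared by both trNK-like clusters with virginal-stage markers. Vegfa was at 90.2 CPM (80.6 to 100.6) in the virginal-like cluster of 1167 cells and 10.3 (7.88 to 13.3) in the terminal-like cluster of 1090 cells led by Popdc3 and Scin. Hpse was at 25.6 (20.6 to 31.4) and 3.27 (1.97 to 5.11) CPM. Serpine2 ran the other way, at 5.62 (3.43 to 8.68) and 13.2 (10.5 to 16.6) CPM. The intervals of Vegfb overlapped, at 20.5 (16.1 to 25.8) and 16.01 (12.9 to 19.6) CPM. Timp2 was at 10.4 (7.32 to 14.3) and 2.24 (1.19 to 3.83) CPM before any allowance for free RNA, and the sorted trNK-V and trNK-T libraries overlapped. Plau was at 4.78 (2.78 to 7.65) and 1.89 (0.945 to 3.39) CPM, with overlapping intervals, and the intervals of Ptn, with 0 and 5 UMIs, overlapped too. Median depth was 2712 UMIs per cell in the virginal-like and 5622 in the terminal-like cluster, and CPM divides by the summed depth. In the other terminal-like cluster, of 819 cells led by Tnfsf4 and Gzmc, Vegfa was at 24.7 CPM and Serpine2 at 3.88 (2.12 to 6.51). Among the 8907 cells kept, the higher Serpine2 level was thus not shared by both terminal-like clusters. The upper limit of 2500 genes left out cells with more genes, and 13076 cells were kept without it. Serpine2 was then at 17.8 CPM in a cluster of 1686 cells with a median of 3186 genes. Its leading genes included Gzmf, Gzme and Gzmd, while Popdc3 was among those of a separate cluster. The stage of these cells was not tested.

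Over all trNK-like cells, Vegfa was the most abundant of the 10 genes with 484 UMIs (32.7 CPM), followed by Vegfb with 277, Hpse with 203 and Serpine2 with 128. These cells held 49.8% of all Serpine2 UMIs and 52.8% of all UMIs. Timp1 had 1 UMI in these 3726 cells, Ptn 6 and Plaur 12. Pgf had none, where 3 UMIs would correspond to 0.202 CPM. Timp2 had 91 UMIs (6.14 CPM), and conventional NK-like cells held it at 81.5 CPM (69.2 to 95.4), above every trNK-like cluster.

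Among clusters of 50 cells or more, all 10 genes had their highest level outside the NK-like clusters. The stromal-like cluster had the highest level of 6 of them, with Timp2 at 1487 CPM (1388 to 1592), Ptn at 206 (170.5 to 247.5), Vegfa at 189 (154 to 228), Serpine2 at 135 (106 to 169), Vegfb at 80.1 (58.4 to 107.1) and Timp1 at 14.2 (6.14 to 28.0). For Vegfa and Timp1 the interval overlapped that of the next cluster. Macrophage-like cells led for Plau (189 CPM, 174 to 204), with Timp2 at 205, Vegfa at 79.1 and Plaur at 53.5. Plaur was highest at 266 CPM (234 to 301) in an unnamed cluster of 336 cells led by Chil3 and Ly6i, which also led for Hpse at 87.1 (69.3 to 108.2). B-like cells had Plaur at 71.0 CPM (51.6 to 95.3), from 44 UMIs in 37 cells. Pgf was highest in an unnamed cluster led by Ccl22 and Xcr1, from 10 UMIs in 4 cells, with an interval (11.4 to 43.6 CPM) that overlapped that of the next cluster. If all stromal marker UMIs in trNK-like cells were free RNA of stromal-like cells, and all macrophage marker UMIs free RNA of macrophage-like cells, the same shares of Timp2 would be 1.30 and 0.860 CPM in the terminal-like cluster led by Popdc3, of the 2.24 CPM read, and 2.45 and 1.94 CPM in the virginal-like cluster, of 10.4. For Vegfa they would be 0.311 and 0.750 CPM in the virginal-like cluster, of 90.2, and for Serpine2 0.118 and 0.0111 CPM in the terminal-like cluster, of 13.2.

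**Figure D5:**
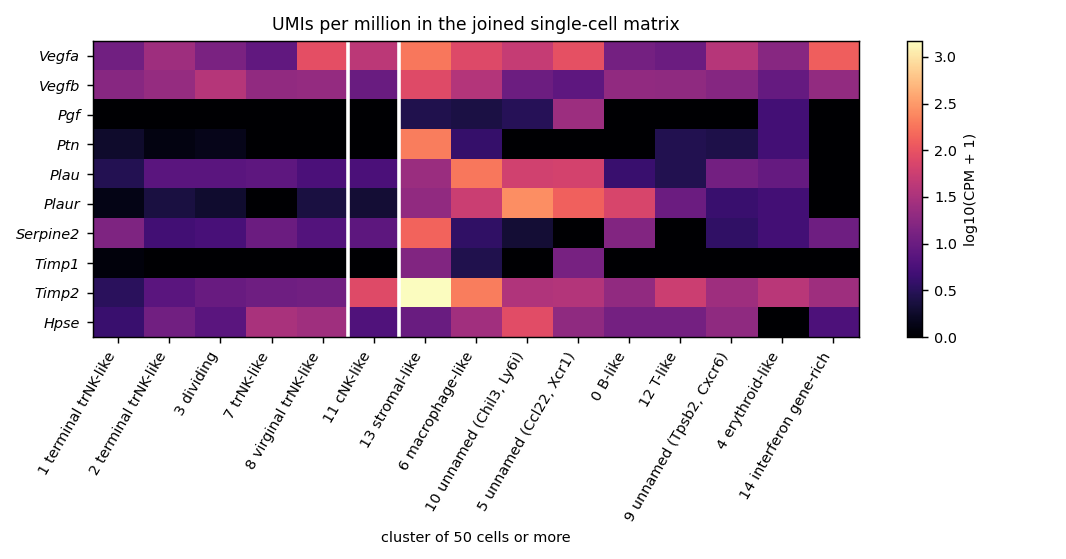
Level of the 10 genes (rows) in single-cell clusters of 50 cells or more (columns), as log10 of CPM plus 1; white lines set off the trNK-like clusters, with the dividing cluster among them, on the left and the conventional NK-like cluster. The stromal-like column is brightest for Timp2 at 1487 CPM, Plaur is brightest in the cluster led by Chil3 and Ly6i, and Timp1, Pgf, Ptn and Plaur are near 0 in the trNK-like columns.

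Related genes of the same processes were followed in 5 lists of 111 genes (other angiogenic ligands, ligand receptors, other matrix proteases, other protease inhibitors, and heparan sulphate and hyaluronan handling), of which the RPKM filter left 16 in the gestation and subset experiments, 15 in the inhibitor culture and 9 in the time course. With this filter, 21.2% of 4683 genes were called in trNK-T against trNK-V, and of the lists 2 genes were higher and 4 lower. The metalloproteinase Adam8 was at 44.9 and 41.5 RPKM in trNK-T against 13.2 and 16.7 in trNK-V (log2 fold change 1.54), and the intracellular serpin Serpinb6a at 34.9 and 28.8 against 13.8 and 16.1. The heparan sulphate 6-O-sulphatase Sulf2 was lower, at 13.4 and 11.8 RPKM against 27.6 and 33.5 (-1.28), as were the intracellular serpin Serpina3g (-2.47) and Adamts14 (-1.09). The hyaluronan receptor Cd44 was at 8.001 and 4.57 RPKM against 13.2 and 14.4 (-1.13), and passed the RPKM filter only through trNK-V and trNK-D, so its call is no support for a difference. EdgeR adjusted p was between 0.00418 and 0.0391 for these 6, and the median log2 fold change over the 16 was -0.14, against -0.01 over all genes. With the count filter 60 of the listed genes were tested, of which 5 were called higher (Adam8, Serpinb6a, Hdgf, Ncl and Serpinb1a) and 4 lower (Sulf2, Ogn, Igf2r and Ndst2), where 6.75% of 14335 genes were called, while Serpina3g, Cd44 and Adamts14 were not called. Serpinb1a had 0 counts in both trNK-V libraries, and Ogn had 2 and 1 in trNK-T. Both passed the count filter only through groups in which they were high, so their calls are no support for a difference. When each library was left out in turn, of the first 6 only Adam8 was called every time.

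On gd6.5 against virgin, where 6.17% of 4504 genes were called, Serpina3g was lower (log2 fold change -2.03, edgeR adjusted p = 0.0304). The heparan sulphate polymerase Ext2 was at 17.7 and 14.9 RPKM on gd6.5 against 8.55 and 6.54 (log2 fold change 1.03, adjusted p = 0.0405), and passed the RPKM filter only through gd6.5, so this call is no support for a difference. With the count filter neither gene was called, as none of 56, and without either gd6.5 library both calls were lost. On gd8.5 against virgin (0.422% of genes called) and in trNK-D against trNK-V (0.32%) or trNK-T against trNK-D (1.75%), none of the 16 passed. In the inhibitor culture none of the 15 passed for IL-21 against none or for iSTAT3 against IL-21. Serpinb6a was higher with IL-21 and iSTAT3 than without IL-21 (1.68, edgeR adjusted p = 0.0347), a call that was lost with the count filter (adjusted p = 0.124) and without any 1 library of either group.

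In the time course, with its unlike replicates at 72 h, 8.08% of 3503 genes were called for IL-21 at that time, and of 9 listed genes the protease inhibitors Serpina3g and Spint2 were called higher (1.42 and 1.37, edgeR adjusted p = 0.0189 and 0.0271). Serpina3g was at 145 and 138 RPKM without and 599 and 240 with IL-21, and its call held with the count filter (adjusted p = 0.0144) but not without replicate 1 of the IL-21 group (adjusted p = 0.103). Spint2 was not called with the count filter (adjusted p = 0.0566). The IL-21 effect on Serpina3g was larger at 72 h than at 6 h (difference 2.15, edgeR adjusted p = 0.0193, 4.17% of genes called). Serpinb9, an inhibitor of granzyme B, was at 66.6 and 73.6 RPKM at 24 h and 24.2 and 3.89 at 72 h without IL-21 (-2.06, edgeR adjusted p = 0.0266, 14.8% of genes called). The log2 fold change was -3.82 without replicate 1 and -1.34 without replicate 2 of the 72 h group, both called, and the call was lost without either 24 h library (adjusted p = 0.0809 and 0.114). With IL-21, Serpinb9 was higher over the mean of 6, 24 and 72 h (1.49, edgeR adjusted p = 0.0106, 6.22% called), with any 1 library left out as well. None of the 9 passed for IL-21 at 6 h (1.97%) or 24 h (1.66%), or from 6 h to 24 h without IL-21 (0.0856%).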

How the data were processed

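Count tables of 34 bulk libraries (17 groups of 2) and a single-cell UMI matrix were used. The raw counts per gene were deposited by the authors in the featureCounts layout on mm10 (GRCm38), and the submitters' processing notes list HISAT2 2.1.0, featureCounts and Subread and, without a stated role, Trimmomatic, Bowtie2, SAMtools, Picard and HOMER. Whether counting used strand is not given in the sources used here. The single-cell UMI counts were deposited by the authors as a pair of tables of the same 15175 cells, made with the BD Rhapsody pipeline on GRCm39 per the study's methods, and were joined by cell.

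The genes and the lists of related genes were chosen with earlier results of these data known. Named related genes are those called with the RPKM filter, and those called only with the count filter were named after their values were seen. RPKM used exonic length and library total. EdgeR 4.0.16 (quasi-likelihood, TMM) was fitted over all groups of an experiment to genes above 10 RPKM in both libraries of any group, with Benjamini-Hochberg adjustment. Genes failing this filter were tested after filterByExpr. DESeq2 1.42.0, limma-voom (limma 3.58.1), RLE size factors, no filter, a replicate block and leaving out each library were alternatives. Leaving out libraries for the related genes was chosen after seeing the data. In simulated data, 4-fold changes were recovered for 99.5% (4683 genes) and 54.0% (14335 genes) of changed genes in trNK-T against trNK-V, and for 73.5% (4158 genes) and 22.5% (13647 genes) for IL-21 in the inhibitor culture, and for 71.0% (3503 genes) and 0.5% (14879 genes) for IL-21 at 72 h. A group at 0 was set to 3 counts per library for a fold bound. Cells with 200 to 2500 genes and under 10% mitochondrial UMIs were clustered with scanpy 1.11.5 (Leiden, resolution 0.8) and named by marker lists. The study's methods give these limits for UMIs per cell, and that reading keeps 4338 cells instead of 8907. Intervals and floors cover counting error only.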

Additional observations from a re-analysis of the deposited data

Results flagged for a closer look

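The effect of IL-21 on Serpina3g, an intracellular serpin from the list of other protease inhibitors, differed between 6 h and 72 h of the time course. The difference of the log2 fold changes, 72 h minus 6 h, was 2.15 in edgeR with the RPKM filter (adjusted p = 0.0193) and 2.08 with the count filter (adjusted p = 0.0139).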

How the results depend on the processing

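Of 1351 values of single genes under alternatives, 1179 kept their direction and side of the threshold, 103 turned direction with no call on either side, 36 lost and 31 gained a call, and 2 turned direction with a call. The number of the 10 genes called was 1 for IL-21 against none in the inhibitor culture, 1 for iSTAT3 against IL-21, and 0 in the other 14 planned comparisons, beside 0.289% and 2.96% of all genes for IL-21 and iSTAT3. Both calls used the RPKM filter, which the genes passed only through the groups where they were high. With the count filter it was 0 in both of these comparisons, also with RLE size factors, limma-voom or the replicate block; DESeq2 gave 0 for iSTAT3 with either filter. In the culture IL-21 comparison limma-voom with the RPKM filter and edgeR with no filter gave 2 each, and DESeq2 with the count filter called Serpine2. Over all genes these called 0.433%, 0.687% and 1.4%. DESeq2 with the count filter gave 1 for gd6.5 and 1 for gd8.5 against virgin, 3 for trNK-T against trNK-V and 1 for trNK-T against trNK-D. It called 5.64%, 2.38%, 14.6% and 3.06% of all genes there. EdgeR with no filter gave 1, 1, 2 and 2, with 7.71% and 2.24% of all genes called in the trNK-T comparisons. Limma-voom with the count filter gave 1 for trNK-T against trNK-V, 1 for IL-21 at 6 h and 1 for the 72 h minus 6 h difference, beside 5.49%, 0.423% and 2.83% of all genes. In the time course this was Timp1, which passed that filter only through groups with IL-21. Leaving out 1 library gave 0 to 2 for IL-21 in the inhibitor culture, 0 to 1 for iSTAT3, and 0 to 1 for gd6.5 and gd8.5 against virgin, IL-21 at 72 h, 72 h against 24 h, and the 72 h minus 6 h difference. Without replicate 2 of the 72 h group without IL-21, Timp2 turned to 10.83 for IL-21 at 72 h and to -11.64 for 72 h against 24 h, where the remaining library was at 0. Without virgin replicate 2, Timp2 was called at -3.72 for gd6.5 and -4.88 for gd8.5. The cause of the other changes was not tested.

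With a replicate block, 0 of the 10 genes were called for IL-21 or for iSTAT3 in the inhibitor culture (Serpine2 adjusted p = 0.142, Timp1 0.0692, edgeR). Deviations of same-numbered libraries correlated between -0.431 and 0.54 (0.54 between the cultures without and with IL-21), and no label says that a number marks a shared mouse, culture or day, so the libraries were treated as sharing only a number. Counts over all genes moved widely. They were 991 for trNK-T against trNK-V (787 to 2095 under other settings, 365 to 954 with 1 library left out), 12 for IL-21 in the inhibitor culture (0 to 191, 2 to 19), 123 for iSTAT3 (0 to 741, 1 to 30), 278 for gd6.5 against virgin (0 to 919, 0 to 907), 19 for gd8.5 against virgin (0 to 502, 0 to 597), 15 for trNK-D against trNK-V (1 to 471, 0 to 18), 82 for trNK-T against trNK-D (3 to 587, 0 to 38), 283 for IL-21 at 72 h (253 to 2189, 242 to 1031), 69 at 6 h (7 to 193, 0 to 17) and 58 at 24 h (1 to 207, 1 to 5). Of 51 single-cell levels under other cell limits or resolution, 28 lay within the counting interval. With 2 libraries a group, many of the simulated 4-fold changes were not recovered with the count filter, so a change that was not called may still exist.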
